A study of Mus musculus with 21 samples.

Results

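The ErbB receptors and their ligands were followed across mouse mammary tumours driven by autotaxin or by a receptor for lysophosphatidic acid (LPA). The set comprised every array feature annotated to 10 genes, the 4 receptors Egfr, Erbb2, Erbb3 and Erbb4 and the 6 ligands Areg, Ereg, Btc, Hbegf, Nrg1 and Nrg2. Of the 10 genes, 9 had features, 54 in all, out of 19087 genes and 33653 features with 1 gene symbol. Areg, encoding amphiregulin, had none and was not analysed here. Egfr had 24 features, Erbb2 11, Nrg1 5, Erbb3 and Erbb4 4 each, Ereg and Btc 2 each, and Hbegf and Nrg2 a single feature.

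The tumours came from mice with MMTV-ATX (autotaxin, the secreted enzyme that makes LPA) or with MMTV-LPA1, MMTV-LPA2 or MMTV-LPA3, the G-protein-coupled receptors LPA acts on. Each of the 4 transgenes had 5 mice with 1 tumour each, and all were expressed from the mouse mammary tumour virus promoter, which is active in mammary epithelium and in some other epithelia. The sources used here give no strain, age or founder line, and no tumour without a transgene was measured. On each of 21 Agilent arrays, tumour RNA (Cy5) was hybridised against 1 common whole-mouse RNA (Cy3), and a value is the log2 ratio of tumour to that reference. Such a ratio ranks tumours for a gene, but it does not rank genes by abundance. In whole tumour tissue, a change in the number of cells of a type and a change in RNA per cell cannot be told apart.

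ErbB receptors are tyrosine kinases that act as pairs. Egfr binds Egf, amphiregulin, epiregulin (Ereg), betacellulin (Btc) and HB-EGF (Hbegf), and Erbb4 shares several of these. Erbb3 and Erbb4 bind the neuregulins (Nrg1, Nrg2), Erbb2 has no known ligand and serves as the favoured partner, and Erbb3 has little kinase activity and passes its signal on through phosphoinositide 3-kinase. In transactivation by LPA, a metalloprotease such as Adam17 or Adam10 sheds a membrane-anchored ligand, HB-EGF being the classic case, which then engages Egfr. In the mammary gland Egfr and amphiregulin take part in duct growth, Erbb4 and neuregulin in lobule development and lactation, and Erbb2 is an oncogene of breast cancer.

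The arrays differed by slide, taken here from the prefix that array titles share. That a shared prefix marks a slide was assumed. Ratios spread less on slides 5 and 6, where their SD per array was 0.825 to 0.903, than elsewhere, where it was 1.195 to 1.432, and 1662 of 19069 genes (8.72%) differed between slides 5 and 6 and slides 1 to 4 in limma at an adjusted p under 0.05. None of the 9 measured ErbB genes did. The 7 tumours on slides 5 and 6 were 1, 2 and 5 of LPA1, the same numbers of LPA2, and LPA3 4, with no ATX tumour, so values within slides or with the slide in the fit are given where they matter. The labelled tissue was checked against luminal epithelial markers (Krt8, Krt18, Epcam and others, 10 of 10 measured), whose median lay above the reference in 19 of 20 tumours, LPA3 4 being the exception at −0.12. Lpar1 averaged −0.58 in LPA1 tumours and −1.73, −0.85 and −1.37 in ATX, LPA2 and LPA3 tumours, and Lpar2 and Lpar3 likewise overlapped between transgenes, but the sources used here do not say whether these features detect the transgenes.

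Promoter sequence is shown for the receptors with the widest and the narrowest spread over tumours, Egfr and Erbb2, which both lie on chromosome 11. The 250 bases before each start are given from RefSeq (GRCm38.p6, plus strand), Egfr at chr11:16751953-16752202 and Erbb2 at chr11:98412234-98412483. Capitals mark matches, on either strand, to the GC box GGGCGG, the CCAAT box CCAAT and the TATA box TATAAA.
Egfr: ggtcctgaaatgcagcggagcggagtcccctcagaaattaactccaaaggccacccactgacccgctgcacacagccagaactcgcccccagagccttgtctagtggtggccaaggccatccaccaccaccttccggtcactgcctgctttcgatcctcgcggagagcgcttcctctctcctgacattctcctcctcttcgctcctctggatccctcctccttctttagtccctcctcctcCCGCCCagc
Erbb2: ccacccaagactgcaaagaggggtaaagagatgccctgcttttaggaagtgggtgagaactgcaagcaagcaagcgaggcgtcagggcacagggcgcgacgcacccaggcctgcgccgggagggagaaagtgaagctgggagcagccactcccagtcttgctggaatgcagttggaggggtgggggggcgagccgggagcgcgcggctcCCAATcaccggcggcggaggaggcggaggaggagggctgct
The Egfr window held 1 GC box, read here on the minus strand, 11 CpG and 60.8% G and C. The Erbb2 window held 1 CCAAT box, 16 CpG and 66.0% G and C. Neither held TATAAA. Over 27025 promoters of the same length in the table, 32.9% had a GC box, 34.5% a CCAAT box and 13.0% TATAAA, and the median number of CpG was 6.0. The matches describe these letters only. Of the members, 5 had an entry in the table (Egfr, Erbb2, Erbb4, Areg and Btc).

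Against the reference, Erbb2, Erbb3, Ereg, Nrg1 and Nrg2 had means above 0 over the 20 tumours and Egfr, Erbb4, Btc and Hbegf below it. The means ranged from −0.41 for Hbegf to 1.65 for Nrg2. Btc, a ligand of Egfr and Erbb4, was most often below the reference, in 17 of 20 tumours, at −0.25 ± 0.30 (SD, n = 20). Its 2 features correlated at −0.131 and averaged −0.466 (feature 1705) and −0.036 (feature 34721). Of the Btc array values 19.0% were exactly 0, so the low mean came mostly from feature 1705. The members varied to very different degrees. By gene value, Erbb2 and Btc were among the least variable genes of the array, with SDs over tumours of 0.301 and 0.295. These exceeded those of only 8.57% and 7.85% of 18935 genes. Hbegf (SD 1.41), Nrg1 (1.04) and Egfr (0.847) exceeded 95.8%, 86.2% and 75.9% of genes, against a median SD of 0.586. A gene value averages its features, 11 for Erbb2, 2 for Btc and 1 for Hbegf, and averaging features that disagree narrows the SD. Single Erbb2 features had SDs of 0.3 to 0.749, and the Btc features 0.561 and 0.269. The plot of member values by transgene shows the spreads of the gene values side by side.

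**Figure D1:**
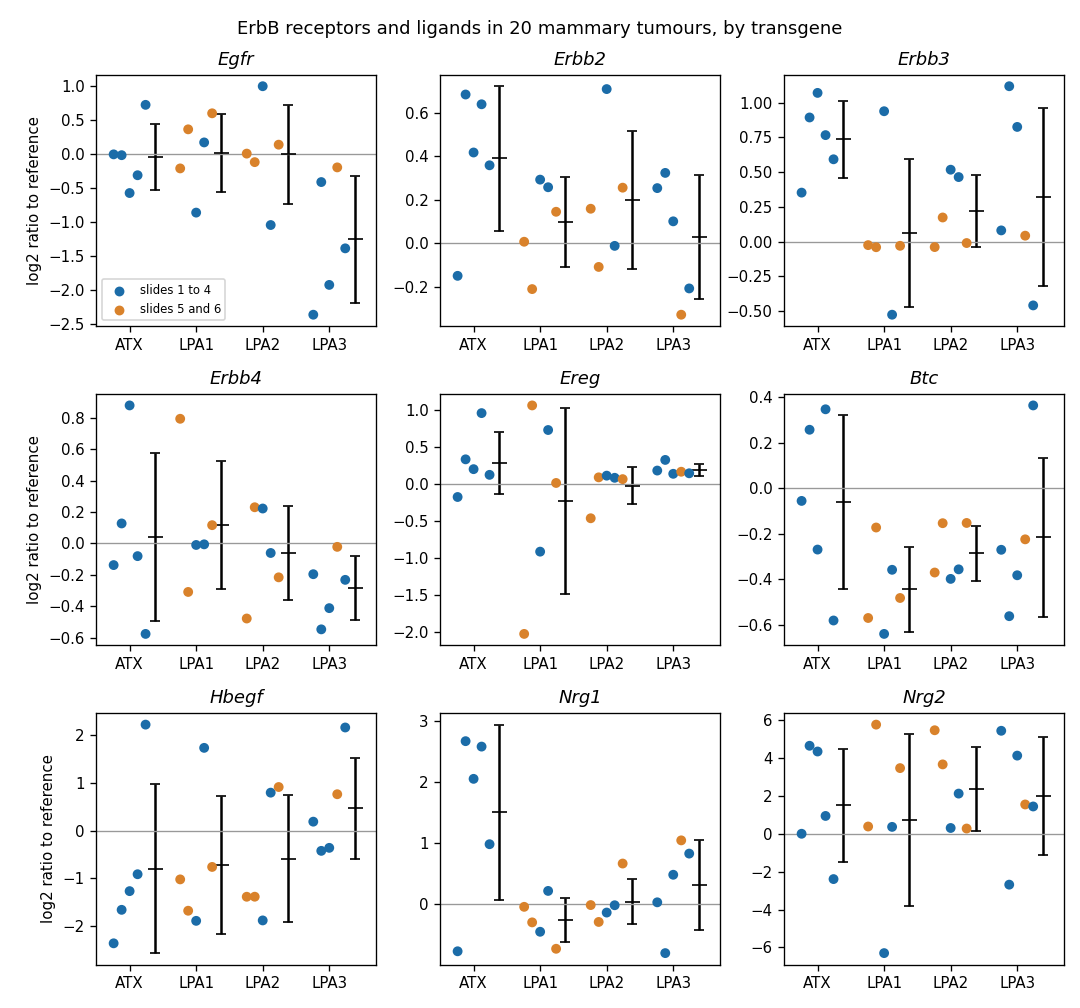
Log2 ratio of tumour to whole-mouse reference (y axis, a separate scale in each panel) for the 9 measured ErbB genes by transgene (x axis). Points are tumours in mouse order, coloured by slide set, with LPA1 4 drawn as the mean of its 2 arrays; bars are mean and SD of 5 tumours. ATX tumours 2, 3 and 4 stand highest for Nrg1 and LPA3 tumours 1, 3 and 5 lowest for Egfr.

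The first question was whether ErbB transcripts differed between the 4 transgenes. Each gene was fitted with limma over the 20 tumours, with p-values adjusted by Benjamini-Hochberg over 19069 genes. In the F test over the transgenes, 0 of 9 members had an adjusted p under 0.05, where 0.0315% of all genes did. At an unadjusted p under 0.05 there were 2, Nrg1 (adjusted p = 0.409) and Egfr (adjusted p = 0.416), against 10.9% of all genes. ATX against the mean of the receptor tumours gave 0 of 9 members (background 0.0996%), and 2 at an unadjusted p under 0.05, Nrg1 and Erbb3 (background 12.7%). In that comparison 7 of 9 members were higher in ATX tumours, with a median difference of 0.28 against −0.04 for all genes. The 6 pairwise comparisons called 0 members as well, with backgrounds of 0% for ATX against LPA1, 0.00524% against LPA2 and 0.0996% against LPA3, and of 0%, 0.00524% and 0% for LPA1 against LPA2, LPA1 against LPA3 and LPA2 against LPA3. At an unadjusted p under 0.05 these counted, in the same order, 2 members (8.99% of all genes), 1 (12.6%), 2 (11.5%), 0 (3.66%), 1 (9.2%) and 1 (9.32%), from Nrg1 and Erbb3 where ATX was compared with LPA1 and otherwise from Nrg1 and Egfr.

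**Figure D2:**
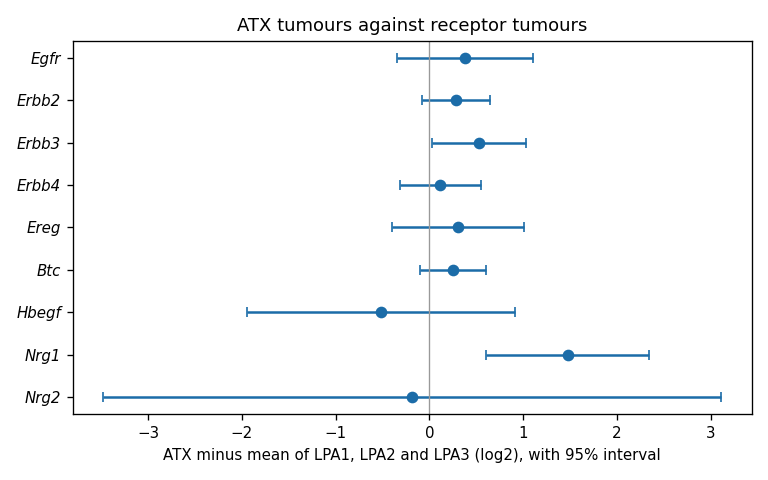
Difference in log2 ratio between ATX tumours and the mean of LPA1, LPA2 and LPA3 tumours (x axis) for each ErbB gene (y axis), with the 95% interval of the limma fit over 20 tumours. The interval of Nrg1 (0.61 to 2.34) and that of Erbb3 (0.03 to 1.03) leave out 0 before adjustment, and that of Nrg2 spans −3.47 to 3.11.

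Among the receptors, Egfr had the lowest values in LPA3 tumours. The 5 LPA3 tumours had log2 ratios of −2.36, −0.41, −1.92, −0.20 and −1.39 in mouse order. In the same order the ATX tumours had −0.01, −0.02, −0.58, −0.31 and 0.72, the LPA1 tumours −0.21, 0.36, −0.86, 0.17 and 0.59, and the LPA2 tumours 0.00, −0.12, 0.99, −1.04 and 0.13. LPA3 tumours 1, 3 and 5 lay below every other tumour, while LPA3 2 and 4 lay among the rest. LPA3 averaged −1.26 ± 0.94 (SD, n = 5), against −0.04 ± 0.48 for ATX, 0.01 ± 0.57 for LPA1 and −0.01 ± 0.73 for LPA2, and the last 3 did not differ beyond their spread.

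In limma, Egfr was lower in LPA3 than in ATX by 1.22 (SE 0.42, unadjusted p = 0.00980, adjusted p = 0.297), than in LPA1 by 1.26 (SE 0.42, adjusted p = 0.416) and than in LPA2 by 1.25 (SE 0.42, adjusted p = 0.495). None passed. Slide 2 held 4 arrays, LPA3 1, 3 and 5 and LPA2 4, and these were the 4 lowest Egfr values of the series. With the slide as a block the differences were 0.616 from ATX, 0.635 from LPA1 and 0.756 from LPA2 (adjusted p 0.813, 0.996 and 0.954). On slide 2 itself, LPA2 4 had −1.04 and the LPA3 tumours −2.36, −1.92 and −1.39, and outside slide 2 the LPA3 values were −0.41 on slide 3 and −0.20 on slide 5. The basal and myoepithelial markers (Krt5, Krt14, Trp63 and others, 10 of 10 measured) were also low on slide 2, with medians of −1.73, −1.72, −2.25 and −1.10 in LPA3 1, 3 and 5 and LPA2 4. By transgene that median ranged from −2.25 to −0.35 in LPA3, −1.10 to 0.18 in LPA2, −2.56 to 0.06 in LPA1 and −0.22 to 0.85 in ATX. LPA3 2, with a basal median of −2.23, and LPA1 3, with −2.56, had Egfr values of −0.41 and −0.86. The part of the basal cells or of the slide in the Egfr values was not tested.

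The 24 Egfr features fell into records that behaved differently. There were 11 features of NM_207655, the record of the full-length receptor, and 11 of NM_007912, that of a shorter form without the kinase domain. AK033431 and AK049452 had 1 feature each, with LPA3 means of −2.13 ± 1.29 and −1.24 ± 2.04 (SD, n = 5). Their means under the other transgenes were −0.44 to −0.17 and −0.20 to −0.14. In the F test over the transgenes their limma adjusted p was 0.306 and 0.745. Within NM_207655, 10 of the 11 features followed the median of all 11, themselves included, closely over tumours (r = 0.984 to 0.997) and 1 did not (r = 0.653). Within NM_007912 the same held (0.940 to 0.988, and 0.609). In LPA2 3 the median was 2.14 for NM_007912 and 0.21 for NM_207655, so the full-length minus the shorter record was −1.93, the widest gap of the 20 tumours. The full-length record had the lower median in LPA3 1, 2, 3 and 5, at −2.94, −0.95, −2.62 and −1.85 against −1.504, 0.21, −1.60 and −1.03 for the shorter one. In LPA3 4 it was −0.11 against −0.22. The full-length record was also the lower one in LPA1 1, 2, 3 and 4, in LPA2 1, 2, 3 and 4 and in ATX 1.

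**Figure D3:**
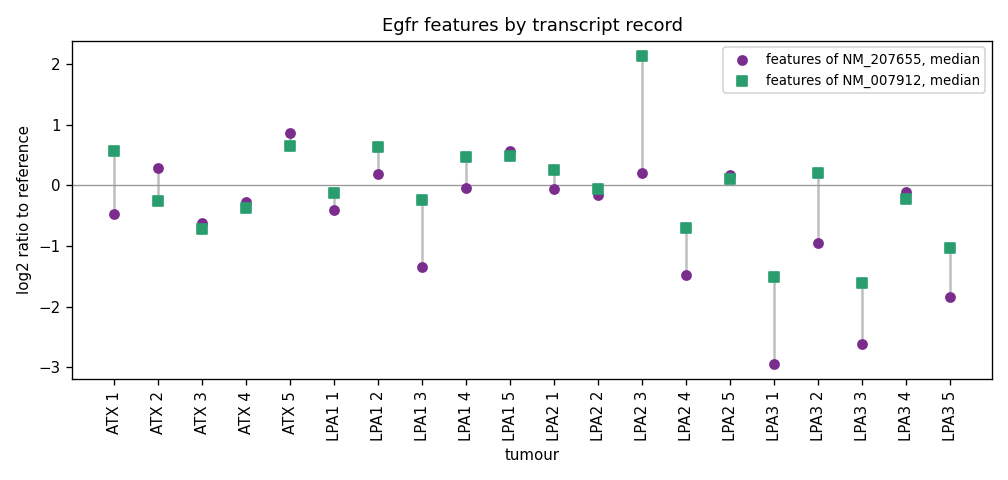
Median log2 ratio (y axis) of the 11 Egfr features of NM_207655 (circles) and of the 11 of NM_007912 (squares) in each tumour (x axis), joined by a line. LPA2 3 stands apart by its high NM_007912 median of 2.14, and LPA3 1, 3 and 5 are low in both records.

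The difference NM_207655 minus NM_007912 averaged −0.02 ± 0.60 (SD, n = 5) for ATX, −0.45 ± 0.44 for LPA1, −0.61 ± 0.80 for LPA2 and −0.87 ± 0.59 for LPA3. The ranges overlapped between all transgenes, from −1.04 to 0.54 in ATX and from −1.44 to 0.10 in LPA3. The part of a transcript that each feature detects is unknown here. The genes whose pattern was most like that of Egfr included Ptgir, encoding the prostacyclin receptor, and Cog3, encoding a subunit of a Golgi tethering complex. Their correlations over 20 tumours, with each slide set centred, were 0.923 and 0.916. They are among the highest of all genes by construction, and points on 1 slide share its hybridisation.

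Erbb2 and Erbb3, partners in the receptor pair that signals most strongly to phosphoinositide 3-kinase, were both highest on average in ATX tumours. Erbb3 values in ATX were 0.35, 0.89, 1.07, 0.77 and 0.59 in mouse order, a mean of 0.73 ± 0.28 (SD, n = 5). LPA1 tumours had −0.03, −0.04, 0.94, −0.53 and −0.03, LPA2 tumours −0.04, 0.17, 0.52, 0.46 and −0.01, and LPA3 tumours 0.08, 1.12, 0.83, 0.04 and −0.46. All ATX tumours were above the reference, but LPA1 3, LPA2 3, LPA2 4, LPA3 2 and LPA3 3 lay within their range or above it. ATX exceeded the mean of the receptor tumours by 0.53 (SE 0.24, limma adjusted p = 0.367).

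The 7 tumours on slides 5 and 6 had Erbb3 values of 0.01 ± 0.08 (SD, n = 7), while the tumours on the other slides had 0.53 ± 0.49 with the repeat array for LPA1 4. With the slide set in the fit the ATX difference was 0.32 (adjusted p = 0.756), and with the slide as a block it was 0.034 (adjusted p = 0.99). The 4 Erbb3 features correlated with each other at a median of 0.289 within slides 1 to 4 and −0.094 within the other set, where those of Egfr correlated at 0.786 and 0.767.

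Erbb2 values stayed within a narrow band, −0.33 in LPA3 4 to 0.71 in LPA2 3. ATX tumours had −0.15, 0.69, 0.42, 0.64 and 0.36, the lowest being ATX 1, and averaged 0.39 ± 0.33 (SD, n = 5). The other means were 0.20 ± 0.32 in LPA2, 0.10 ± 0.21 in LPA1 and 0.03 ± 0.29 in LPA3, an order in which no neighbours differed beyond their spread. ATX minus the receptor tumours was 0.28 (SE 0.17, 95% interval −0.08 to 0.64, limma adjusted p = 0.514), and the slide block left 0.044 (adjusted p = 0.982).

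Across the 13 tumours of slides 1 to 4, Erbb2 and Erbb3 correlated at r = 0.599 (Spearman correlation 0.593, permutation p = 0.0303, adjusted p = 0.182 over 12 tests), and at r = 0.406 without the 2 tumours farthest from the Erbb2 median. On slides 5 and 6 r was −0.372 (n = 7, exact permutation p = 0.459). Erbb3 followed a luminal score more closely on slides 1 to 4 (r = 0.803, Spearman correlation 0.753, permutation p = 0.00185, adjusted p = 0.0222). The score was the mean of the luminal markers, each centred over tumours. LPA1 4 and LPA3 5 had the lowest luminal marker medians among those 13 and low Erbb3. Without the 2 tumours farthest from the median of the score r was 0.437, and on slides 5 and 6 it was −0.288 (n = 7). Of the 6 relations computed, in 2 slide sets each, only the luminal relation on slides 1 to 4 passed after adjustment. It passed neither with the first array of LPA1 4 nor with arrays scaled to a common spread. The genes most like Erbb2 were Ip6k2 (0.852), an inositol phosphate kinase, the Wnt receptor Fzd6 (0.838) and Ildr1 (0.803). Fzd6 was also among the genes most like Erbb3 (0.838), beside Apoc1 (0.852) and Bpnt2 (0.822). These genes were picked for a high r over the same tumours, so high values within a slide set follow in part from the choice. For Erbb3 the correlations were 0.881, 0.859 and 0.860 on slides 1 to 4, and −0.073, 0.213 and −0.204 on slides 5 and 6. For Erbb2 they were 0.564, 0.862 and 0.643 on slides 5 and 6. The Erbb2 features correlated with each other at a median of 0.781 on slides 1 to 4 and of 0.12 on slides 5 and 6. Grb7, an adaptor encoded next to ERBB2 in humans and often amplified with it, was looked up after its values were seen and correlated with Erbb2 at 0.781.

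By gene value Erbb4, the neuregulin receptor of lactation, showed no order of transgenes beyond its spread. The group means were 0.12 ± 0.41 (SD, n = 5) in LPA1, 0.04 ± 0.53 in ATX, −0.06 ± 0.30 in LPA2 and −0.28 ± 0.20 in LPA3, and all groups overlapped. Its 4 features correlated with each other at −0.302 to 0.244 (median −0.108), and 15.5% of its 84 array values were exactly 0. The Erbb4 gene value is therefore an average of features that did not follow each other. Feature 31245 averaged 0.67 in LPA1, 0.77 in LPA2, 0.18 in ATX and −0.14 in LPA3. In the limma F test over the transgenes its adjusted p was 0.454, and those of the other features were 0.818 to 0.950. Cilk1 (0.757), Atp5j2 (0.747) and Asrgl1 (0.741) were the genes most like it. Erbb4 did not follow the casein gene Csn2 (r = −0.218 on slides 1 to 4, n = 13, permutation p = 0.437; 0.016 on slides 5 and 6, n = 7, exact permutation p = 0.977).

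Among the ligands, Nrg1 had the largest difference between ATX and the mean of the receptor tumours in the fit without slide terms. Nrg1 encodes neuregulin-1, which binds Erbb3 and Erbb4. The ATX tumours had log2 ratios of −0.78, 2.67, 2.05, 2.58 and 0.98 in mouse order. The LPA1 tumours had −0.05, −0.30, −0.46, 0.21 and −0.74, the LPA2 tumours −0.02, −0.30, −0.14, −0.02 and 0.66, and the LPA3 tumours 0.03, −0.81, 0.48, 1.04 and 0.83. ATX 2, 3 and 4 lay above all 15 receptor tumours, and ATX 5 lay within the LPA3 range. By gene value, ATX 1 was the second lowest of all 20, after LPA3 2. In ATX 1, feature 8019 (AK048708) had −3.98, while the other Nrg1 features had 0.01, 0.96, −0.23 and −0.64.

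The Nrg1 means were 1.501 ± 1.44 (SD, n = 5) in ATX, 0.31 ± 0.73 in LPA3, 0.04 ± 0.37 in LPA2 and −0.27 ± 0.37 in LPA1. The last 3 did not differ beyond their spread. ATX exceeded the mean of the receptor tumours by 1.47 (SE 0.41, 95% interval 0.61 to 2.34, unadjusted p = 0.00207), which did not pass over all genes (limma adjusted p = 0.17). ATX 1 decided the call. Without it the difference was 2.04 with an adjusted p of 0.00526, and leaving out any 1 of the other tumours gave adjusted p-values up to 0.512. When limma weighted the arrays by quality, the difference was 2.03 with an adjusted p of 0.00243, in a setting that called 2525 genes in place of 19. Over these and the other settings the adjusted p of Nrg1 ranged from 0.00243 to 0.759.

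On slide 3, which held 2 ATX tumours, ATX 4 and 5 had 2.58 and 0.98 and LPA2 3 and LPA3 2 had −0.14 and −0.81. On slide 4, ATX 1 and 2 had −0.78 and 2.67, LPA1 3 −0.46 and the repeat array of LPA1 4 1.39. ATX 3 was alone on its slide. With the slide as a block the difference was 1.33 (SE 0.71, adjusted p = 0.692), and it was also 1.33 on slides 1 to 4 alone (adjusted p = 0.759). The ATX and receptor tumours were thus separated on slide 3 and overlapped on slide 4.

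The 5 Nrg1 features pointed the same way with different strength. ATX minus the receptor tumours was 1.85 and 2.27 for the features of NM_178591, 1.02 and 1.15 for those of AK141037 and 1.07 for AK048708. Feature 23391 (NM_178591) had 0.96, 2.69, 2.40, 2.87 and 1.06 in the ATX tumours, 1.39 at most in LPA3 (tumour 5) and 0.88 at most in LPA1 (tumour 4) and 0.28 in LPA2. With ATX 1 included, every ATX value lay above 14 of the 15 receptor tumours. This feature was the only 1 of the 54 that passed over 45177 features (SE 0.32, limma adjusted p = 0.0268), where 0.0996% of all features did. Its call was lost on slides 1 to 4 alone (1.67, adjusted p = 0.566), with the slide set as a covariate (1.68, adjusted p = 0.1) and with the slide as a fixed block (1.79, adjusted p = 0.378) or a random one (1.82, adjusted p = 0.0846). It was also lost with the repeat array alone for LPA1 4 (1.81, adjusted p = 0.0597), with scaled arrays (1.52, adjusted p = 0.0773) and without ATX 2, 3 or 4, LPA1 1 or LPA2 5 (adjusted p up to 0.153). In the F test over the transgenes no member feature passed (background 0.0398%).

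**Figure D4:**
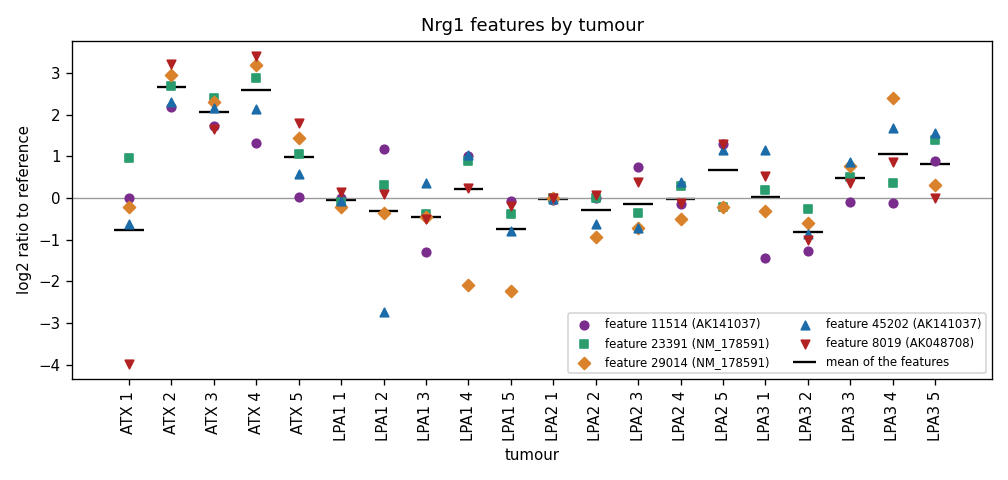
Log2 ratio (y axis) of the 5 Nrg1 features in each tumour (x axis), with a horizontal line at their mean. All 5 features lie at 1.31 or above in ATX 2, 3 and 4, while in ATX 1 they span −3.98 to 0.96.

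The tumour LPA1 4 was hybridised on 2 arrays, which disagreed for Nrg1. Its first array, on slide 7, gave Nrg1 −0.96 and its repeat, on slide 4, gave 1.39, a difference of 2.35. Over 19084 genes the difference between these arrays had an SD of 0.885, and the arrays correlated at 0.765. Egfr differed by 0.11 and Hbegf by 0.07 between them, Erbb3 by 0.64, and Ereg by 1.17. The genes most like Nrg1 were Sike1 (0.919), Gria3 (0.900), encoding a glutamate receptor subunit, and Abhd4 (0.893). A basal and myoepithelial score was taken as the mean of those markers, each centred over tumours. Nrg1 and this score correlated at r = 0.521 on slides 1 to 4 (n = 13, permutation p = 0.0700, adjusted p = 0.28) and at −0.447 on slides 5 and 6 (n = 7, exact permutation p = 0.314). Markers of Schwann cells and neurons, cells that also make neuregulin, were below the reference in all 20 tumours (7 of 9 measured). Their median was −2.75 to −1.70 (ATX), −3.08 to −0.62 (LPA1), −1.66 to −0.73 (LPA2) and −2.82 to −0.62 (LPA3).

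Hbegf, whose shed product is the classic mediator of Egfr transactivation, varied widely within every transgene. Its single feature had −2.36, −1.66, −1.27, −0.91 and 2.22 in the ATX tumours and −1.02, −1.68, −1.89, 1.74 and −0.76 in the LPA1 tumours. LPA2 tumours had −1.38, −1.38, −1.88, 0.80 and 0.92, and LPA3 tumours 0.19, −0.42, −0.36, 0.77 and 2.16. ATX 5, LPA3 5 and LPA1 4 were the highest and came from 3 transgenes. The means were 0.47 ± 1.06 (SD, n = 5) in LPA3, −0.59 ± 1.33 in LPA2, −0.72 ± 1.45 in LPA1 and −0.79 ± 1.77 in ATX, and no neighbours differed beyond their spread. LPA3 minus ATX was 1.26 with an SE of 0.83, and ATX minus the receptor tumours was −0.51 (SE 0.68, 95% interval −1.94 to 0.91, limma adjusted p = 0.807). That difference was −1.27 without ATX 5 and −0.12 without ATX 1. With an interval this wide, differences of 1 on the log2 scale were not detectable.

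The genes most like Hbegf over the tumours were Sdc1 (0.955), encoding the heparan sulphate proteoglycan syndecan-1, Fpr2 (0.936), a formyl peptide receptor of phagocytes, and Cd300lf (0.917), an inhibitory receptor of myeloid cells. On slides 5 and 6 these correlations were 0.981, 0.907 and 0.694, and on slides 1 to 4 0.949, 0.948 and 0.959. The genes were picked by r over these same tumours, so high values follow in part from the choice. The median of the macrophage markers (Adgre1, Cd14, Mrc1, C1qa, C1qb and C1qc, 6 of 8 listed were measured) was highest in LPA1 4 (2.88) and LPA3 5 (2.18), where Hbegf was 1.74 and 2.16, and lowest in ATX 3 (0.05) and LPA1 3 (0.07), where it was −1.27 and −1.89. ATX 5 had the highest Hbegf, 2.22, with a macrophage median of 1.11, close to LPA1 2, whose Hbegf was −1.68 at 1.05. By transgene that median ranged from 0.05 to 1.11 (ATX), 0.07 to 2.88 (LPA1), 0.24 to 1.53 (LPA2) and 0.68 to 2.18 (LPA3), and its part in the Hbegf values was not tested. Hbegf did not follow the immediate early gene Fos (r = −0.118, n = 13, permutation p = 0.705 on slides 1 to 4; −0.263, n = 7, exact permutation p = 0.568 on slides 5 and 6).

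**Figure D5:**
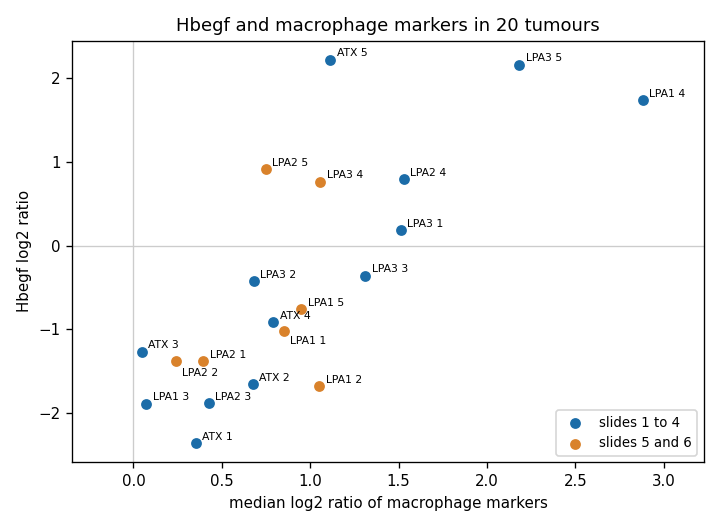
Hbegf log2 ratio (y axis) against the median log2 ratio of 6 macrophage markers (x axis) in 20 tumours, coloured by slide set. LPA1 4 and LPA3 5 lie at the upper right with Hbegf of 1.74 and 2.16, and ATX 5 has the highest Hbegf, 2.22, at a macrophage median of 1.11. For LPA1 4 the macrophage median is that of the repeat array.

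Ereg, encoding epiregulin, was nearly constant in LPA3 tumours, at 0.14 to 0.33, and scattered in LPA1 tumours, from −2.03 in LPA1 1 to 1.06 in LPA1 2. The means were 0.29 ± 0.42 (SD, n = 5) in ATX, 0.19 ± 0.08 in LPA3, −0.02 ± 0.25 in LPA2 and −0.23 ± 1.26 in LPA1. The LPA2 tumours reached 0.11 and the LPA3 tumours began at 0.14, and the share of all genes that separate so is not given here. The fitted difference LPA2 minus LPA3 was −0.21 (SE 0.41, limma adjusted p = 0.88). On feature 1342 these groups overlapped, with LPA2 up to 0.358 and LPA3 down to −0.057. On feature 34431 LPA2 reached 0.226 and LPA3 began at 0.228. By gene value the other groups overlapped. The LPA1 scatter came from feature 1342 (NM_007950), which ranged from −4.18 to 1.497 there, while feature 34431 (AK019057) ranged from 0.12 to 0.63. The features correlated at −0.184, and 11.9% of the Ereg array values were exactly 0. Btc means were −0.06 ± 0.38 in ATX, −0.21 ± 0.35 in LPA3, −0.29 ± 0.12 in LPA2 and −0.44 ± 0.18 in LPA1, and its highest values were 0.37 in LPA3 5 and 0.35 in ATX 4. Neither gene had an adjusted p under 0.5 in ATX against the receptor tumours (0.752 for Ereg and 0.551 for Btc). The genes most like Ereg were Sorbs3 (0.794), Tyw1 (0.793) and Adgra1 (0.781). Those most like Btc were Olfr551 (0.796), Crip2 (0.792) and Zhx2 (0.775), at −0.043, 0.101 and 0.244 on slides 5 and 6.

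Nrg2, encoding neuregulin-2, had the widest spread, from −6.30 in LPA1 3 to 5.76 in LPA1 2, on a single feature. Values above 4 occurred under every transgene, where ATX 2 had 4.65, LPA1 2 had 5.76, LPA2 1 had 5.47 and LPA3 1 had 5.44. The SD within groups was 2.23 to 4.54, so the standard error of a difference between transgenes was 1.93 and no comparison between transgenes could be read from it. ATX minus the receptor tumours was −0.18, and its sign turned with the slide in the fit. Lztr1 (0.830), Actg2 (0.826) and Cfap126 (0.806) were most like it.

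The rest of the pathway was read from a list of 31 measured genes. Of the sheddases and their partners, other ligands, adaptors and kinases, and attenuators, 0 of 31 were called in any of the 8 tests. In ATX against the receptor tumours 18 were higher and 13 lower, with a median difference of 0.01. The sheddases are the step that releases Hbegf and Nrg1. Adam17 averaged 1.54 ± 0.72 (SD, n = 5) in LPA3, 1.16 ± 0.29 in ATX, 0.30 ± 0.64 in LPA1 and 0.23 ± 0.91 in LPA2 (F test, limma adjusted p = 0.394). It was lower on slides 5 and 6 than on slides 1 to 4 by 1.15 (SE 0.28, adjusted p = 0.0127). Adam10 averaged 0.86 ± 0.36 in ATX and 0.33, 0.00 and 0.50 in LPA1, LPA2 and LPA3, a difference of 0.59 for ATX against the receptor tumours (SE 0.21, adjusted p = 0.265). The median of the 7 sheddases and partners lay above the reference in 20 of 20 tumours, from 0.03 to 1.25.

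Downstream of the receptors, Pik3r1, encoding the p85 subunit of the phosphoinositide 3-kinase that Erbb3 recruits, was lowest on average in LPA3, at 0.27 ± 0.49 (SD, n = 5), and averaged 1.29 ± 0.16 for ATX, 1.22 ± 0.49 for LPA1 and 0.99 ± 0.32 for LPA2. The ATX tumours had 1.43, 1.402, 1.33, 1.26 and 1.03 and the LPA3 tumours 0.68, 0.60, 0.52, −0.51 and 0.07. These groups did not overlap, and the share of all genes that do so is not given here. The difference of 1.02 (SE 0.26) had a limma adjusted p of 0.155. LPA3 1, 3 and 5 were on slide 2 and LPA3 4 on slide 5, where no ATX tumour was. On slide 3, ATX 4 and 5 had 1.26 and 1.03 and LPA3 2 had 0.60. The part of slide 2 in these values was not tested. Erbin, which encodes a scaffold protein that binds Erbb2, averaged −0.94 ± 0.20 in LPA3 and −0.23 ± 0.25 in LPA2 (adjusted p = 0.467). Among the other ligands, Tgfa averaged 0.75 ± 0.51 in LPA3, 0.53 ± 0.65 in ATX, 0.06 ± 0.45 in LPA2 and −0.08 ± 0.30 in LPA1, where LPA1 and LPA3 differed by 0.82 (SE 0.31, adjusted p = 0.484).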

How the data were processed

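Labels gave the groups and the dyes: tumour RNA, extracted with a Qiagen RNeasy kit per the labels, carried Cy5 and the reference Cy3, without a dye swap. The values are the log2 ratios in the table the authors deposited. The base, taken as 2, the scanner processing and the normalization are not given in the sources used here, and every array median was 0. The table holds 45220 features. A gene value is the mean of its features with 1 gene symbol in the platform annotation. The 2 arrays of LPA1 mouse 4 were averaged, and the repeat was used where the slide entered, for list medians and for relations.

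All 20 tumours entered 1 fit in limma 3.58.1 (R 4.3.3) with 16 residual degrees of freedom. Genes needed values in at least 4 tumours of each transgene. The table gives no signal over background, so dim features could not be removed, and the number of arrays limits the precision. Relations were tested by two-sided permutation (1e+05 resamples, exact on slides 5 and 6) in Python 3.11.15 with scipy 1.17.1. Relations with Areg were left out. Alternatives covered slide terms, array weights, scaling, the treatment of features, of values of exactly 0 and of the repeat array, and leaving out each tumour. The fit was tested on simulated data. For each member the 3 genes of highest correlation were named, except 1 that is not reported here, and pathway genes by smallest p. The members and lists were chosen with earlier results of these data known.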

Additional observations from a re-analysis of the deposited data

Results flagged for a closer look

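In 3 of 36 groups of 5 tumours (9 genes, 4 transgenes), 1 tumour stood far from the others by Dixon's gap test, which chance alone gives in about 1 in 20 groups. Ereg was −0.46 in LPA2 1, while the other LPA2 tumours lay between 0.07 and 0.11. Ereg was 0.33 in LPA3 2, against 0.14 to 0.18 in the other LPA3 tumours. Nrg1 was 0.66 in LPA2 5, against −0.30 to −0.02 in the other LPA2 tumours.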

How the results depend on the processing

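Most settings left the counts as they were, and the slide terms, array weights and ATX 1 moved them. Leaving out each tumour in turn gave 0 to 1 member genes called in the F test, in ATX against the mean of the receptors and in ATX against LPA1, LPA2 or LPA3, the 1 being Nrg1 without ATX 1. It gave 0 to 3 member features in ATX against the mean of the receptors and 0 to 3 in the F test, Erbb4 differences of −0.092 to 0.272 and Nrg2 differences of −0.969 to 0.792. Array weights called 3 members in ATX against the mean (Nrg1, Erbb3 and Erbb2), 2 against each of LPA1, LPA2 and LPA3 (with 1723, 2562 and 1030 of all genes), 1 each in LPA1 and in LPA2 against LPA3 (Egfr, with 828 and 1070 of all genes), 2 in the F test, and 3 and 22 member features in ATX against the mean and in the F test, among 3737 and 6107 of all features. The 1 member feature called in ATX against the mean became 0 with slide set as covariate, with each slide as a fixed or random block, on slides 1 to 4 alone, scaled arrays and the repeat array alone. The count of all genes called in ATX against the mean, 19, ranged from 0 to 116 when leaving out a tumour and from 0 to 2525 over the other settings. In the F test the count of 6 ranged from 0 to 37 and from 0 to 3351.

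Signs turned for Erbb4 with the slide as a fixed block (−0.035) and for Nrg2 with slide set in the fit (1.24), a fixed (2.92) or random (0.717) slide block, slides 1 to 4 alone (1.47) and values of exactly 0 as missing (0.193). Among the relations, r turned without the 2 farthest tumours for Egfr and fibroblast markers (−0.041 on slides 1 to 4 and −0.134 on slides 5 and 6), Nrg1 and basal markers (0.543 on slides 5 and 6) and Hbegf and Fos (0.122 and 0.868). For Erbb4 and Csn2 on slides 5 and 6 it turned with values of exactly 0 as missing (−0.040) and with scaled arrays (−0.059). The number of relations that passed, 1, became 0 with the first array of LPA1 4 and with scaled arrays. The cause of these changes was not tested. Mouse numbers did not pair the tumours, since 9 of 30 pairs with the same number correlated above 0.1 (−0.355 to 0.318). With the mouse number as a replicate block 0 members were called and 1 member feature in ATX against the mean, and 16 of all genes.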

Other observations

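Genes outside the lists were looked up after their values were seen, and no test was applied to them. Tnfsf11, encoding RANK ligand, correlated with Nrg1 at 0.738 over 20 tumours with each slide set centred, at 0.815 on slides 1 to 4 and 0.091 on slides 5 and 6. It was 5.17, 4.53 and 4.75 in ATX 2, 3 and 4 and 2.61 and 2.39 in ATX 1 and 5, where Nrg1 was −0.78 and 0.98. Esr1 and Pgr, encoding the oestrogen and progesterone receptors, correlated with Nrg1 at 0.453 and 0.502, at 0.583 and 0.786 on slides 1 to 4 and at −0.957 and −0.782 on slides 5 and 6. Plaur, encoding the urokinase receptor, correlated with Hbegf at 0.888, and at 0.902 and 0.831 in the slide sets.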
